A study of Homo sapiens with 6 samples.

Results

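The 7 transcripts described here encode surface antigens of the prostate epithelium, most of them used as targets for therapy: FOLH1, MME, STEAP1, STEAP2, STEAP4, PSCA and TMEFF2. They were taken by gene name from the deposited gene table, which held all 7, each in a single row, among 18164 genes. Poly(A) RNA of LNCaP cells, an androgen-responsive line from a human prostate cancer metastasis labelled as wild type in genotype, was sequenced in 6 libraries. In 3 of them the cells had received 5 µM enzalutamide, an antiandrogen, for 14 days, and in the other 3 they had received the vehicle dimethyl sulfoxide (DMSO). Both groups were kept in serum-containing medium with 0.1% DMSO, were seeded at 150000 cells per 10 cm dish and had medium and agent renewed every 72 h. The DMSO cells were collected before they were confluent. The labels do not name the day of that collection or the density of the enzalutamide cells, and drug, time in culture and density cannot be told apart.

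Antibodies, radioligands and engineered T cells bind a tumour cell through proteins exposed on its membrane, so the amount of such a protein bears on how well it can be targeted. FOLH1 encodes prostate-specific membrane antigen (PSMA), a glutamate carboxypeptidase that is imaged and irradiated with small ligands, and MME encodes neprilysin (CD10), a peptidase that degrades signalling peptides. The STEAP proteins span the membrane several times; STEAP2 and STEAP4 reduce iron and copper, whereas STEAP1 lacks the cytosolic domain that binds NADPH. TMEFF2 carries follistatin-like and epidermal growth factor-like domains outside the cell, and PSCA is a small protein of the Ly6 family held by a lipid anchor. In prostate cells androgen is known to lower FOLH1 and to raise STEAP4 and TMEFF2. What is known of androgen and MME, STEAP1, STEAP2 or PSCA is not reviewed here. The libraries report RNA only, and neither protein nor its place on the membrane was measured.

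The antigens moved in opposite directions. MME, STEAP2 and FOLH1 rose with enzalutamide, TMEFF2, STEAP4 and PSCA fell, and STEAP1 did not pass the test. Thus 6 of 7 passed the edgeR quasi-likelihood test at an adjusted p under 0.05, where 59.2% of all genes did. Of all genes 30% were called higher and 29.2% lower, so calls in both directions were common in this comparison and the count of members was not tested against that share. The same 6 members had groups that did not overlap in CPM, a gene's counts scaled to a common library size, as 66.4% of all genes had. Against the stricter null of a log2 change of 1, only MME, STEAP4 and TMEFF2 passed among the members, and 16.3% of all genes did. The median log2 change of the 7 was 0.04, beside a median of -0.00 and quartiles of -0.54 and 0.56 over all genes.

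**Figure D1:**
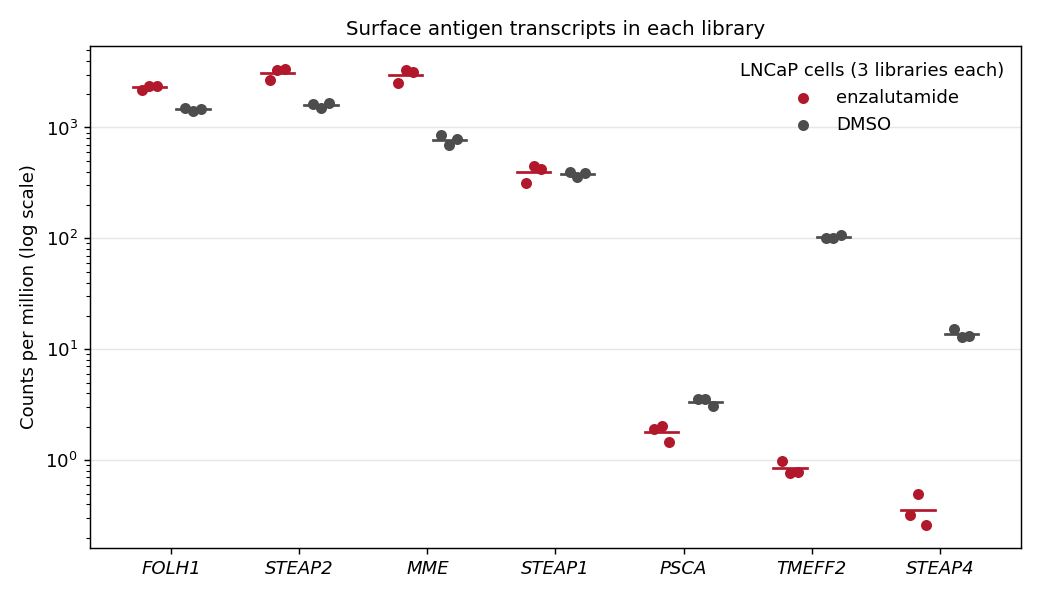
CPM (log scale) of the 7 antigens in each library, with bars at the mean of 3 libraries. The enzalutamide points of FOLH1, STEAP2 and MME lie above all DMSO points, those of PSCA, TMEFF2 and STEAP4 lie below them, and those of STEAP1 overlap with them.

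Total counts were 42302153 to 52107644 in the enzalutamide libraries and 35578160 to 42540487 in the DMSO libraries. Genes of the mitochondrial genome took 12.1% to 15.7% of counts with enzalutamide and 10.5% to 11.2% with DMSO. Enzalutamide replicate 1 stood apart from its group on the second principal component, which held 5.44% of the variance, and it gave the lowest enzalutamide value for FOLH1, MME, STEAP1 and STEAP2. All 6 luminal prostate markers looked up were measured, with summed levels of 4039 to 4604 CPM with enzalutamide and 5201 to 5388 CPM with DMSO. The 4 of 6 fibroblast markers with a row summed to 13.8 to 14.3 CPM with enzalutamide and 12.9 to 13.5 CPM with DMSO, a sum mostly of COL1A1, which fell (log2 change -0.49), while COL3A1 (1.78) and FAP (6.69) rose. The 3 of 5 endothelial markers summed to 9.41 to 12.3 CPM with enzalutamide and 11.2 to 13.4 CPM with DMSO, a sum mostly of VWF, which fell (-0.64), while EMCN rose (2.19). KRT14, the 1 of 3 basal markers with a row, had 0.699 to 1.28 CPM with enzalutamide and 1.92 to 2.35 CPM with DMSO. Of 6 leukocyte markers only HLA-DRA had rows, on alternate scaffolds, with 0 counts in DMSO and 355 and 85 counts in its 2 rows over the enzalutamide libraries, and the part of such markers in the results was not tested. In bulk RNA, fewer cells with a transcript and less of it per cell cannot be told apart.

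FOLH1 (chromosome 11, 49145092 to 49208638, minus strand, hg38) was the most abundant antigen per length in both groups and rose moderately. It had 2176, 2387 and 2378 CPM in the enzalutamide libraries, against 1502, 1396 and 1464 CPM in the DMSO libraries. Every enzalutamide library exceeded every DMSO library, and the fit gave a log2 change of 0.67 ± 0.09 (SE, edgeR adjusted p = 7.35e-05), or 1.59-fold. The 95% interval of that change ran from 0.48 to 0.86. Its near-identical copy FOLH1B, a transcribed pseudogene further along chromosome 11, averaged 4.24 ± 0.488 CPM with enzalutamide and 3.74 ± 0.355 CPM with DMSO (SD, n = 3 each). FOLH1B did not pass (log2 change 0.18 ± 0.15, SE, edgeR adjusted p = 0.316), and reads that match both copies may be lost or split. Among the other relatives of this peptidase family in the table, NAALADL2 rose (0.73 ± 0.13, edgeR adjusted p = 0.000704). TFRC, the transferrin receptor, which shares the fold but takes up iron, fell (-1.65 ± 0.10, edgeR adjusted p = 3.75e-07).

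MME (chromosome 3, 155024124 to 155183729, plus strand) had the largest rise of the 7. The enzalutamide libraries held 2515, 3321 and 3133 CPM, against 853, 689 and 792 CPM in the DMSO libraries. The lowest enzalutamide value, from replicate 1, was still well above the highest DMSO value. The log2 change was 1.94 ± 0.13 (SE, edgeR adjusted p = 7.37e-07), or 3.84-fold, larger than 94.1% of the changes over all genes. Its relative ECE1, which processes endothelin, went the other way with 15.7 ± 2.57 CPM with enzalutamide and 31.8 ± 2.44 CPM with DMSO (SD, n = 3 each). That fall was -1.02 ± 0.14 (log2, SE, edgeR adjusted p = 0.000123). PHEX, another relative and a regulator of phosphate balance, stayed under 1 CPM in all libraries and did not pass (-0.00 ± 0.27, edgeR adjusted p = 1.00).

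The 3 STEAP members divided into a rise, a fall and no call. STEAP2 (chromosome 7, 90167590 to 90238137, plus strand) had 2668, 3333 and 3387 CPM in the enzalutamide libraries, against 1619, 1492 and 1647 CPM in the DMSO libraries. The groups were clearly separate, with a log2 change of 0.98 ± 0.11 (SE, edgeR adjusted p = 3.15e-05), or 1.97-fold. STEAP4 (chromosome 7, 88270892 to 88306891, minus strand) went far down: 17, 26 and 11 counts remained in the enzalutamide libraries, against 557, 543 and 468 counts in the DMSO libraries. In CPM these were 0.323, 0.491 and 0.261 with enzalutamide and 15.2, 12.9 and 13.2 with DMSO. The log2 change of STEAP4 was -5.23 ± 0.21 (SE, edgeR adjusted p = 1.87e-08), or 37.6-fold lower.

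STEAP1 (chromosome 7, 90154456 to 90164829, plus strand), the target of T-cell engagers under clinical study, did not pass. The enzalutamide libraries held 315, 446 and 418 CPM, against 396, 358 and 389 CPM in the DMSO libraries. Enzalutamide replicate 1 lay below all DMSO libraries and the other 2 lay above them. The log2 change was 0.04 ± 0.13 (SE, edgeR adjusted p = 0.784) with a 95% interval of -0.24 to 0.33, so a rise or fall within those bounds cannot be set aside. This result rested on 1 library: without enzalutamide replicate 1 STEAP1 passed as higher (log2 change 0.19, edgeR adjusted p = 0.00432), in a fit that called 71.2% of all genes in either direction and 35.6% as higher.

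STEAP1 and STEAP2 lie next to each other on the same strand, and their order by level per length differed between the groups. On the RPKM scale, CPM per kilobase of merged exon length, the ratio of STEAP2 to STEAP1 was 1.501, 1.32 and 1.43 in the enzalutamide libraries, against 0.725, 0.737 and 0.749 in the DMSO libraries. Per length, STEAP2 was thus the more abundant of the pair in each enzalutamide library and the less abundant in each DMSO library. In CPM, STEAP2 lay above STEAP1 in every library of both groups. The order per length therefore depends on the merged exon lengths, 8720 bases for STEAP2 and 1544 for STEAP1, which may differ from those of the main transcripts. The difference in the log2 ratio was 0.94, with an exact two-sided permutation p = 0.1, the smallest that 3 libraries against 3 allow, so this comparison could not reach 0.05. The antisense transcript STEAP2-AS1 spans STEAP1 and the first part of STEAP2 without sharing exon bases with either in the table. It stayed near 1 CPM and did not pass (log2 change -0.25 ± 0.23, SE, edgeR adjusted p = 0.375). CFAP69, a gene of the sperm flagellum that follows STEAP2 on the chromosome, rose by 1.04 ± 0.16 (log2, SE, edgeR adjusted p = 0.000269). Of 8 other table genes that start within 500 kb of STEAP1, 4 were called higher and 1 lower, beside 59.2% of all genes called in either direction.

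The 2 remaining genes of the family were at lower levels than STEAP1 and STEAP2, while STEAP3 lay above STEAP4 in both groups. STEAP3, which reduces iron in endosomes, fell by 1.35 on the log2 scale (SE 0.17, edgeR adjusted p = 7.18e-05). It averaged 7.41 ± 1.81 CPM with enzalutamide and 18.9 ± 1.29 CPM with DMSO (SD, n = 3 each). STEAP1B, a close copy of STEAP1 on another part of chromosome 7, had under 1 CPM in every library and did not pass (log2 change -0.29 ± 0.28, SE, edgeR adjusted p = 0.396). Of the 5 STEAP genes, 1 rose, 2 fell and 2 did not pass, where 59.2% of all genes were called in either direction.

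**Figure D2:**
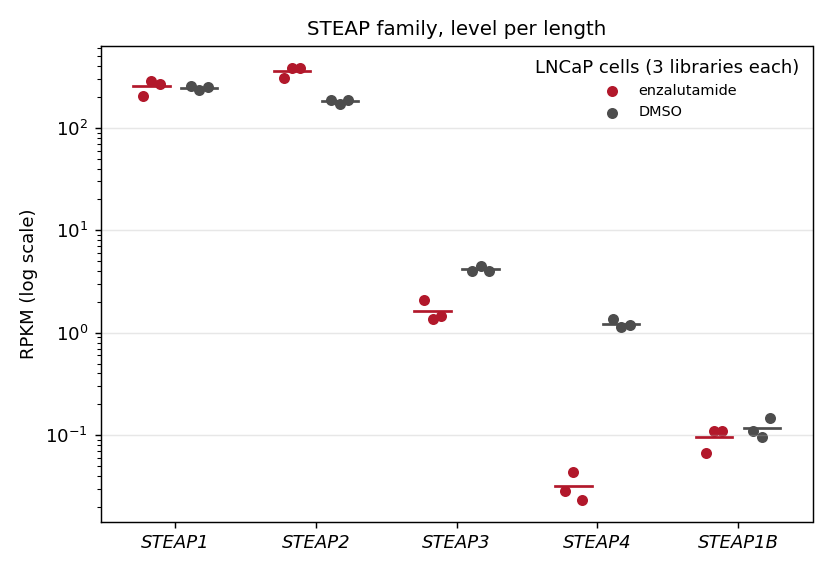
RPKM (log scale) of the 5 STEAP genes in each library, with bars at the mean of 3 libraries. On this scale, which depends on merged exon length, STEAP2 lies above STEAP1 with enzalutamide and below it with DMSO. STEAP4 averages 0.0319 RPKM with enzalutamide and 1.23 RPKM with DMSO.

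TMEFF2 (chromosome 2, 191949043 to 192194933, minus strand) fell the most of the 7. It had 52, 41 and 33 counts in the enzalutamide libraries, against 3695, 4278 and 3799 counts in the DMSO libraries. In CPM the enzalutamide libraries held 0.988, 0.775 and 0.784 and the DMSO libraries 101, 102 and 107. The transcript was therefore measured in all 6 libraries, near the low end of the table with enzalutamide. The log2 change was -6.92 ± 0.15 (SE, edgeR adjusted p = 6.93e-10), or 121-fold lower, with a 95% interval of -7.24 to -6.60. Only 0.127% of all genes had a lower fitted change. TMEFF1, its one close relative, was not analysed here.

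The stretches just before the start sites of the antigens that changed the most are shown because the data bear on their RNA output. They come from RefSeq for build GRCh38.p14 and run 5′ to 3′ on the gene's strand, and capitals mark matches, on either strand, to the motifs named below. The table's MME gene begins further upstream than RefSeq's. The MME stretch begins 250 bases before the most upstream RefSeq start and ends where the table's first overlapping exon begins.
TMEFF2, chr2:192194934-192195183, minus strand: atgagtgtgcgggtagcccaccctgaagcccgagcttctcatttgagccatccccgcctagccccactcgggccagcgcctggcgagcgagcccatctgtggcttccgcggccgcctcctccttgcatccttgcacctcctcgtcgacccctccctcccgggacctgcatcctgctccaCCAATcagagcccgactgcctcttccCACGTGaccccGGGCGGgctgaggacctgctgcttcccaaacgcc
STEAP4, chr7:88306895-88307144, minus strand: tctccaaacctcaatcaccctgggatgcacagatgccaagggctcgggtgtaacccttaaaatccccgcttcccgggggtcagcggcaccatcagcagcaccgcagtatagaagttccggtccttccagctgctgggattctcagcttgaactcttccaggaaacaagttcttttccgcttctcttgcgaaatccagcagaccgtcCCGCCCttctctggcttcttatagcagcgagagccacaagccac
MME, chr3:155079422-155079646, plus strand: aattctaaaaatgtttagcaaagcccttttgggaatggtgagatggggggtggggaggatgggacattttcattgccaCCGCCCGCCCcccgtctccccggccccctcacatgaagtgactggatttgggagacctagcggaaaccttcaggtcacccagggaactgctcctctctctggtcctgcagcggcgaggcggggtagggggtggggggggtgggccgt

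RefSeq windows of 250 bases before a start were on hand for 5 of the 7 genes, 9 windows in all. They were searched on both strands for the full androgen response element, its half-site AGAACA (which lies within it), the TATA box TATAAA, the E-box CACGTG, the CCAAT box and the GC box GGGCGG. None of the 9 windows held the half-site or the full element, where 12.4% and 0.00285% of all 35116 windows did. The TMEFF2 window held 1 E-box, 1 CCAAT box and 1 GC box, motifs present in 6.34%, 32.0% and 42.6% of all windows. The STEAP4 window held 1 GC box, the MME window shown 2 overlapping ones and the STEAP1 window none of these motifs. In base composition the STEAP4 window had 55.6% G and C and the most upstream windows of the others 67.6% (TMEFF2), 63.2% (MME), 64.4% (STEAP1) and 69.6% (STEAP2), beside a median of 58% over all windows. The most upstream STEAP2 window held 1 GC box. It runs from 90211490 to 90211739 and thus lies inside the table's STEAP2 gene, which begins at 90167590. STEAP2 had another window before a downstream start, which had 32.8% G and C and held 1 TATA box and 2 CCAAT boxes. A match is only a run of letters, and the absence of one says nothing of sites outside these windows.

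PSCA (chromosome 8, 142670308 to 142682725, plus strand) was low in both groups and fell. The enzalutamide libraries held 101, 107 and 61 counts, against 129, 150 and 108 counts in the DMSO libraries. Scaled for depth these were 1.92, 2.02 and 1.45 CPM with enzalutamide and 3.53, 3.56 and 3.05 CPM with DMSO, without overlap between the groups. The log2 change was -0.90 ± 0.17 (SE, edgeR adjusted p = 0.00107), or 1.87-fold lower. Exons of PSCA share 367 of its 1763 bases with exons of JRK on the opposite strand, and no source used here states if reads were counted by strand. JRK averaged 47.6 ± 9.21 CPM with enzalutamide and 41.5 ± 2.47 CPM with DMSO (SD, n = 3 each), far above PSCA, so the PSCA values are uncertain. No other member shared exon bases with another gene of the table.

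Of 15 listed genes of the Ly6 family, PSCA included, 7 were in the table, and 30% of all genes were called higher. Of the 7, 5 rose, PSCA fell and PLAUR, the urokinase receptor, did not pass (log2 change 0.22 ± 0.24, SE, edgeR adjusted p = 0.465). CD59, which blocks the complement membrane attack complex, rose to 165 ± 9.44 CPM with enzalutamide, against 68.2 ± 2.504 CPM with DMSO (SD, n = 3 each; log2 change 1.27, edgeR adjusted p = 1.37e-06). LYPD6B had 1029 counts over the enzalutamide libraries and 18 over the DMSO libraries, a log2 change of 5.43 ± 0.24 (SE, edgeR adjusted p = 3.97e-08). LYPD6, its neighbour on chromosome 2, rose by 1.61 ± 0.20 and LYPD3 by 1.32 ± 0.27 (log2, SE, edgeR adjusted p = 6.71e-05 and 0.00174). LYNX1, a modulator of nicotinic receptors, rose by 0.55 ± 0.18 (edgeR adjusted p = 0.0222), a call lost without DMSO replicate 3 (0.46, adjusted p = 0.0921). Over the families of all members, 13 of 29 listed relatives other than the members were in the table, of which 6 rose, 3 fell and 4 did not pass, where 59.2% of all genes were called. The counts of relatives were not tested against that share.

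**Figure D3:**
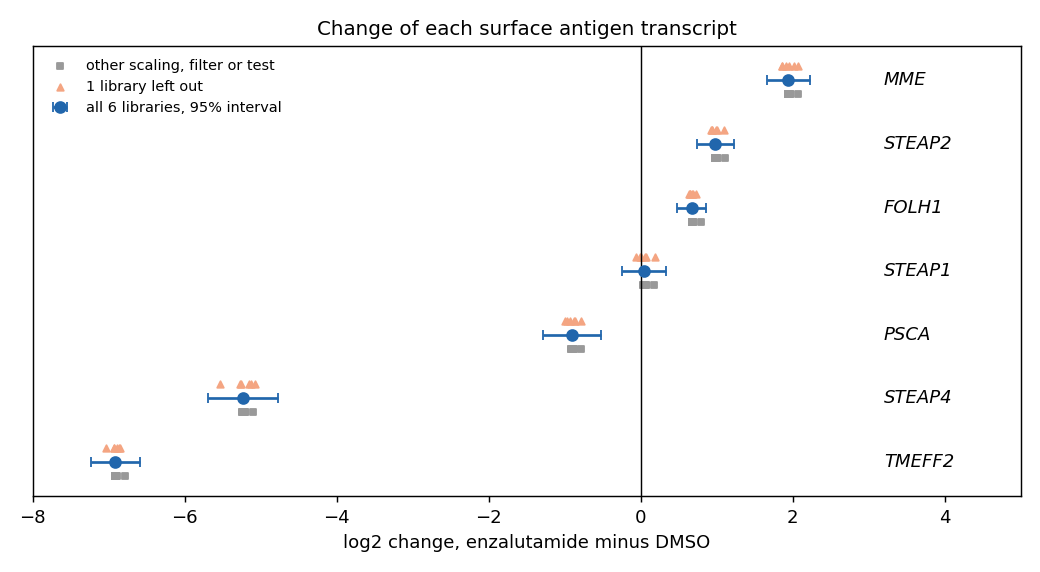
Log2 change of each antigen, enzalutamide minus DMSO, with its 95% interval over all 6 libraries, the values with 1 library left out and the values under other scalings, filters and tests. Only the values of STEAP1 fall on both sides of 0.

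Compared per length, FOLH1, STEAP1, STEAP2 and MME were the 4 most abundant antigens in both groups. With enzalutamide FOLH1 averaged 434 ± 22.4 RPKM, STEAP2 359 ± 45.9, MME 311 ± 43.8 and STEAP1 254 ± 44.7 (SD, n = 3). STEAP2 overlapped MME and MME overlapped STEAP1 in that order, while FOLH1 lay above STEAP2 in every library. Far below came PSCA at 1.02 ± 0.173 RPKM, TMEFF2 at 0.145 ± 0.0206 and STEAP4 at 0.0319 ± 0.0106 (SD, n = 3). With DMSO the order was FOLH1 (273 ± 9.97 RPKM), STEAP1 (247 ± 13.02), STEAP2 (182 ± 9.51), MME (80.9 ± 8.66), TMEFF2 (17.7 ± 0.601), PSCA (1.92 ± 0.161) and STEAP4 (1.23 ± 0.112), with no overlap between neighbours (SD, n = 3). TMEFF2 thus stood above PSCA with DMSO and below it with enzalutamide. FOLH1 exceeded 99.8% of the retained genes in RPKM with enzalutamide and 99.6% with DMSO, whereas TMEFF2 exceeded 8.43% of them with enzalutamide and 86.3% with DMSO. Together the 7 took 0.890% ± 0.0971 of all counts with enzalutamide and 0.428% ± 0.0239 with DMSO (SD, n = 3 each). Of their summed RPKM, MME held 22.8% ± 0.712 with enzalutamide and 10.1% ± 0.598 with DMSO, and STEAP1 held 18.6% ± 1.24 with enzalutamide and 30.7% ± 0.0796 with DMSO (SD, n = 3 each). RPKM uses merged exon length, which understates a gene whose main transcript omits long exons.

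Genes known to respond to androgen were measured in the same libraries. KLK3, which encodes prostate-specific antigen, averaged 194 ± 28.4 CPM with enzalutamide and 2582 ± 21.5 CPM with DMSO (SD, n = 3 each), a log2 change of -3.73. KLK2 (-4.48), FKBP5 (-3.88) and TMPRSS2 (-1.96) also fell. Apart from STEAP4, 17 of 19 listed androgen-induced genes fell, where 29.2% of all genes were called lower. The other 2, NDRG1 (0.23, edgeR adjusted p = 0.135) and TRPM8 (0.03, edgeR adjusted p = 0.809), did not pass. The median log2 change of the 19 was -2.26, a smaller fall than that of STEAP4 or TMEFF2. Apart from FOLH1, 7 of 8 listed androgen-repressed genes rose, where 30% of all genes were called higher. These counts were not tested against those shares. The median log2 change of the 8 was 3.47. Among those that rose were OPRK1, the kappa opioid receptor (7.90), and UGT2B17, which conjugates steroids (5.35), while UGT2B11 fell (-1.20). FOLH1, at 0.67, rose less than that median. MKI67, a marker of dividing cells, changed by -5.85 in the same libraries, and the part of proliferation in the antigens' changes was not tested.

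Other carcinoma surface antigens were listed for comparison. Of 30 listed, 20 were in the table. Of these 10 rose, 4 fell and 6 missed the threshold, where 30% of all genes were called higher and 29.2% lower, a difference that was not tested. The median log2 change was 0.48, beside -0.00 over all genes. The receptor tyrosine kinase ERBB2 (0.95), the immune checkpoint protein CD276 (0.81) and the adhesion protein NECTIN4 (0.82), all antibody targets, rose by less than 2-fold. SSTR2, the somatostatin receptor bound by radioligands, rose to 3.17 ± 0.272 CPM with enzalutamide, against 0.350 ± 0.149 CPM with DMSO (SD, n = 3 each). CD24 (2.26), MET (1.92) and MUC1 (1.43) rose too and were near or under 1 CPM with DMSO, and reads of CD24 may be shared with its copies elsewhere in the genome. FAP had 310 counts over the enzalutamide libraries and 2 over the DMSO libraries, 120-fold higher with an exact 95% counting interval of 32.9 to 993. Both DMSO counts were in replicate 1. The fitted log2 change of 6.69 was 6.11 without DMSO replicate 2 and 9.57 without DMSO replicate 1, where DMSO had 0 counts and the value depends on the prior count. PTK7 rose by 0.52 (edgeR adjusted p = 0.0130), a call lost without DMSO replicate 1 (0.46, adjusted p = 0.0621).

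GRPR, the bombesin receptor that is imaged in prostate cancer, fell the most in this list. It had 8 counts over the enzalutamide libraries and 570 over the DMSO libraries, a log2 change of -6.45 ± 0.30 (SE, edgeR adjusted p = 6.17e-08), or -7.16 without enzalutamide replicate 2, which held 5 of the 8. ROR1 (-0.86) and EGFR (-0.73) fell too. DLL3, the neuroendocrine target of a T-cell engager, averaged 2.57 ± 0.539 CPM with enzalutamide and 3.52 ± 0.185 CPM with DMSO (SD, n = 3 each). Its change was -0.45 ± 0.17 (log2, SE, edgeR adjusted p = 0.0441), a call lost with DESeq2 (0.0524), with library size alone (0.0598), without mitochondrial genes (0.0505), with upper quartile scaling (0.124), without any 1 of the DMSO libraries (0.0741, 0.123 and 0.112), and without enzalutamide replicate 2 (0.147) or 3 (0.114). EPCAM (-0.29, edgeR adjusted p = 0.0504), CD47 (0.29, 0.0616), ALCAM (-0.26, 0.103), ERBB3 (-0.05, 0.661) and CD46 (-0.08, 0.584) did not pass. Of these, EPCAM passed with the edgeR exact test (0.0395), limma-voom (0.0435) and without enzalutamide replicate 1 (-0.17, 0.0191) or 3 (0.0456). CD47 passed with the exact test (0.0488), library size alone (0.0429), mitochondrial genes left out (0.0492), upper quartile scaling (0.0140) and without enzalutamide replicate 1 (0.42, adjusted p = 8.02e-07). ALCAM passed without enzalutamide replicate 2 (-0.38, adjusted p = 0.0366).

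**Figure D4:**
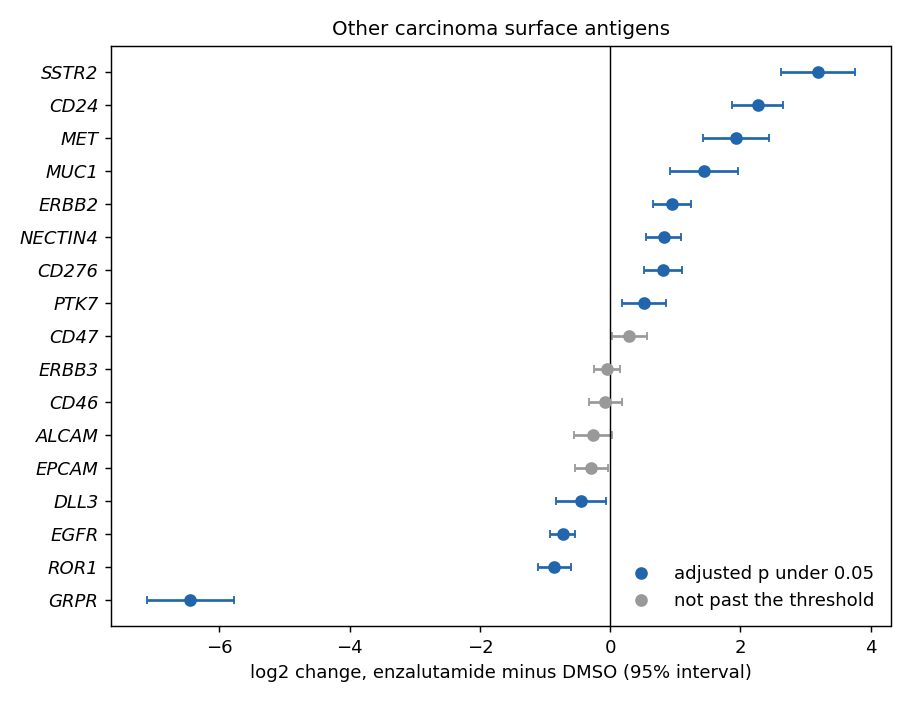
Log2 change, enzalutamide minus DMSO, with its 95% interval (not adjusted for the number of genes) for other surface antigens that averaged 1 CPM or more in a group and are reported here; FAP, with 2 counts in DMSO, is left out. Points past the threshold lie on both sides of 0, from SSTR2 at 3.19 to GRPR at -6.45.

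The genes most like each antigen were sought by the root mean square difference of centred log2 CPM profiles over the 6 libraries, among 11599 other protein-coding genes. With 2 groups of libraries this likeness is set largely by the size of the change. For FOLH1 they were TPM1, a tropomyosin (difference 0.022), and PKNOX1, a homeobox factor (0.025), and for MME SLC7A13, an amino acid transporter (0.058), and DNAJC6, which uncoats clathrin vesicles (0.059). STEAP2 was closest to ZNF704 (0.023) and LMBRD1, a lysosomal cobalamin protein (0.026), and STEAP1 to IMPA1, an inositol phosphatase (0.019), and DLG1, a scaffold of cell junctions (0.027). For the falling antigens the matches were looser. STEAP4 was closest to CENPF, a kinetochore protein (0.13), and MYBPC1, a myosin-binding protein (0.17), PSCA to MAP7D3 (0.084) and DND1 (0.085), and TMEFF2 to CCDC141 (0.23) and TNFRSF19, a receptor of the tumour necrosis factor family (0.27). CCDC141 held 2 counts over the enzalutamide libraries and 888 over the DMSO libraries, so its profile rests on few counts with enzalutamide.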

How the data were processed

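Per the file headers, the deposited table lists for each of 18164 genes its raw read count in every library. Beside these stand log2 CPM and log2 RPKM values, log2 fold changes and p-values of the authors, per the file headers, none of which entered a result here. The submitters' processing notes name STAR 2.5, featureCounts, Subread 1.6.5, edgeR 3.20.8 and build hg38. The third highest count of every gene was at least 9, so the table had been filtered on low counts. Genes outside it are not analysed here. Gene positions are those of the table.

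The tests used edgeR 4.0.16 (R 4.3.3): trimmed mean of M values (TMM) scaling, filterByExpr (which removed no gene), and the robust quasi-likelihood F test with group as its one term, 4 residual degrees of freedom and Benjamini-Hochberg adjustment over all genes. Changes are enzalutamide minus DMSO. Each SE was taken as the log2 change divided by √F, and the 95% intervals rest on it. CPM and RPKM use TMM-scaled library sizes. DESeq2 1.42.0, limma 3.58.1, other scalings and filters, a replicate block and leaving out each library were alternatives. The test script was checked on simulated counts in which 200 of 17795 genes had been changed. It recovered 81% of 2-fold and 98% of 4-fold changes, and 4.28% of its calls were false. In the data 59.2% of genes were called, a setting that this check does not cover. Counting intervals describe counting error alone. The labels do not state separate cultures for the replicates, and p-values therefore reflect only the spread between these libraries, which may be technical. No pair of replicates was alike within sampling noise (lowest chi-square per degree of freedom 3.69).

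The members and gene lists were chosen with earlier results of these data known. Named genes were the members, every family relative in the table, other antigens averaging 1 CPM or more in a group, fixed androgen-responsive genes and MKI67, the 2 most alike genes per member, and nearest neighbours. JRK, STEAP2-AS1, NDRG1, TRPM8, UGT2B11, NR3C1, HLA-DRA, KRT14, COL1A1, COL3A1, VWF and EMCN were named after their values were seen. Some listed genes are not reported here.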

Additional observations from a re-analysis of the deposited data

How the results depend on the processing

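Of 126 alternative values for the 7 members, 120 kept direction and side of the threshold. Tested against a log2 change of 1, FOLH1 (0.67), STEAP2 (0.98) and PSCA (-0.90) no longer passed, leaving 3 members and 2965 genes, with 1 gene each in the families of FOLH1 and MME, 3 in that of PSCA and 6 of the other antigens. With 1 library left out, the log2 change was -0.056 to 0.19 for STEAP1, 0.64 to 0.73 for FOLH1, 1.86 to 2.07 for MME, 0.92 to 1.10 for STEAP2, -0.997 to -0.78 for PSCA, -5.53 to -5.07 for STEAP4 and -7.03 to -6.85 for TMEFF2. STEAP1 was below 0 without enzalutamide replicate 2 or 3 and passed as higher without replicate 1; under the 12 other settings its adjusted p was 0.273 to 1.00. The genes called numbered 9151 to 12924 with 1 library left out, the highest without enzalutamide replicate 1.

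Upper quartile scaling shifted the median of all genes by 0.127; STEAP1 was then at 0.17, and ERBB3 (0.076), CD46 (0.051) and PHEX (0.13) changed sign, none past the threshold. PHEX, near 0, was also above 0 with DESeq2 (0.016), RLE size factors (0.00797), library size alone (0.024), no mitochondrial genes (0.019), primary chromosomes only (0.000161) and the replicate block (0.00105). With 1 library left out, signs also turned for PHEX (-0.26 to 0.19), ERBB3 (-0.099 to 0.012), CD46 (-0.16 to 0.051), TRPM8 (-0.054 to 0.087), IMPA1 (-0.075 to 0.17) and DLG1 (-0.015 to 0.22), the last 2 of which passed as higher without enzalutamide replicate 1, and NDRG1 (0.35) passed with upper quartile scaling. The cause of these changes was not tested. Same-numbered libraries did not deviate together (correlations of -0.27, -0.37 and 0.15 over 13952 genes), so the numbers were not taken as pairs; with the replicate block 10174 genes and the same number of members, 6, were called. PSCA, STEAP4 and TMEFF2 rest on 61 to 107, 11 to 26 and 33 to 52 counts per enzalutamide library, which limits their precision.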

Other observations

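Genes beside the other antigens showed the following values. PLCH1, a phospholipase that follows MME on chromosome 3, averaged 10.9 ± 0.633 CPM with enzalutamide and 5.67 ± 0.216 CPM with DMSO (SD, n = 3 each; log2 change 0.95, edgeR adjusted p = 6.92e-05). TMEFF2 had 0 other table genes starting within 500 kb. The nearest on either side were NABP1, which encodes a single-stranded DNA binding protein (-1.40 ± 0.21, log2, SE, edgeR adjusted p = 0.000286), and the prostate long non-coding RNA PCGEM1. PCGEM1 had 1 count over the enzalutamide libraries and 57 over the DMSO libraries, 73.8-fold lower with an exact 95% counting interval of 12.7 to 2966. The 1 count was in enzalutamide replicate 2, and the fitted log2 change of -5.70 was -7.39 without that library, a value that depends on the prior count. LNCOC1, a long non-coding RNA beyond PSCA, fell by 1.97 on the log2 scale (SE 0.16, edgeR adjusted p = 2.78e-06). AC073359.1, a long non-coding RNA before MME, had 43 counts over the enzalutamide libraries and 2 over the DMSO libraries, 16.6-fold higher with an interval of 4.33 to 141. Both DMSO counts were in replicate 1, and the fitted log2 change of 3.85 was 3.26 without DMSO replicate 2 and 6.73 without DMSO replicate 1, where it depends on the prior count. SRI, which encodes a calcium-binding protein next to STEAP4 (log2 change 0.23, edgeR adjusted p = 0.0698), AC134682.1 next to PSCA (0.53, 0.108) and the pseudogenes UBTFL9 (0.51, 0.0881) and AC135977.1 (-0.69, 0.0435) beside FOLH1 each crossed the threshold of 0.05 under at least 1 alternative. NR3C1, the glucocorticoid receptor, rose, with 2.02 ± 0.0243 CPM with enzalutamide and 0.304 ± 0.123 CPM with DMSO (SD, n = 3 each).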
